A study of Mus musculus with 14 samples.

Results

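The 9 genes described here, Adgre1, Csf1r, Maf, C1qa, C1qb, Apoe, Gpnmb, Mertk and Trem2, are widely used to recognise macrophages. They were chosen by name, with earlier results of these data known, from the 55367 gene symbols counted in each of 2 RNA sequencing experiments. All 9 symbols were present in both count tables, and all 9 passed the filter on low counts in both, among 15794 and 13456 tested genes. The cells were lineage-negative (Lin-) primary cells from mouse bone marrow of wild-type genotype. That name describes a mixture of stem and progenitor cells depleted of mature blood cells before culture. The cells were grown in IMDM with 15% serum, SCF, IL6 and IL3. The libraries themselves held abundant markers of mature cells such as neutrophils, given below. For the first comparison, 3 libraries came from cells transduced with a pSMAL lentivirus carrying luciferase and 3 from cells transduced with the same vector carrying SETBP1D868N, a mutant of the nuclear protein SETBP1. In the second experiment every cell population carried SETBP1D868N, and 4 libraries came from cells given the solvent DMSO and 4 from cells given 2.5 µM PF-9363, an inhibitor of MYST histone acetyltransferases, for 4 days. The promoter of the vector, and the strain, sex and age of the mice, are not given in the sources used here. Nothing in the labels says whether replicates came from separate cultures or animals, so the p-values measure the spread between these libraries, which may be technical.

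Macrophages depend on signals through the CSF1 receptor and on transcription factors of the ETS and Maf families, which together establish the set of surface receptors and secreted proteins that a macrophage carries. Among these are receptors for dying cells and lipids (Mertk, Trem2), the chains of complement C1q, apolipoprotein E, and glycoproteins of the lysosome such as Gpnmb. Stem and progenitor cells of the marrow carry most of these transcripts at low levels, and they accumulate as cells mature along the monocyte and macrophage line.

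Of the 9 genes, 8 fell in cells with SETBP1-D868N relative to luciferase and none rose, with fold changes from 1.26-fold for Mertk to 2.13-fold for C1qa. Gpnmb, the remaining gene, was not called. Across all tested genes, 22.7% were called lower and 24.5% higher in that comparison (edgeR's quasi-likelihood test, Benjamini-Hochberg adjusted p under 0.05). In the cells that carried SETBP1-D868N, 8 of the 9 genes rose with PF-9363, by 5.72-fold for Maf to 10.5-fold for Gpnmb, and none was called lower. There, 36.6% of all tested genes were called higher and 39.4% lower, and 5.77% were called higher by at least 4-fold, the size that all 8 genes passed. The gene that did not rise was Apoe. The median log2 fold change of the 9 genes was -0.60 with SETBP1-D868N and 2.76 with PF-9363, against 0.0043 and -0.038 over all tested genes.

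**Figure D1:**
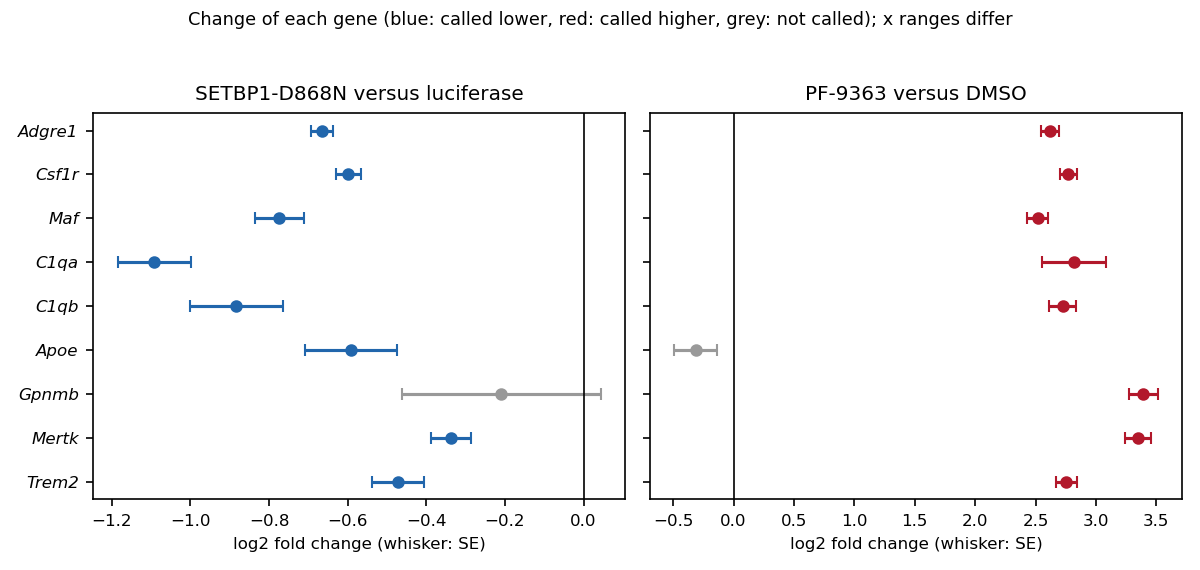
Log2 fold change of each of the 9 genes (points) with its standard error (whiskers) for SETBP1-D868N against luciferase (left) and PF-9363 against DMSO (right), on x axes of different range. On the left all points lie below 0 and only Gpnmb, in grey, was not called; on the right 8 points lie between 2.52 and 3.39 and Apoe, in grey, lies at -0.31.

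Promoter sequence was examined because 8 of the genes moved together in the second experiment while Apoe did not. RefSeq (GRCm38.p6) gave promoter entries for 5 of the 9 genes, and the 250 bases before each start are used here. Shown are C1qb, Trem2 and Gpnmb, which rose with PF-9363, and the first of the 3 Apoe windows. Capitals mark the letters GAGGAA (the core of the purine-rich box bound by the factor PU.1, written TTCCTC when it lies on the opposite strand), TGCTGA (a core of Maf sites) and TGANTCA (the AP-1 site).
C1qb, chr4:136886201-136886450, minus strand: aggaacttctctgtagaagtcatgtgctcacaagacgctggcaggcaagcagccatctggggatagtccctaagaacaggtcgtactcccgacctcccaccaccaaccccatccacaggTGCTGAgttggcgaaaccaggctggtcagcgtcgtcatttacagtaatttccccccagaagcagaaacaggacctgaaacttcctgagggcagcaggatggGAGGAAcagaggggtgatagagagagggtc
Trem2, chr17:48346151-48346400, plus strand: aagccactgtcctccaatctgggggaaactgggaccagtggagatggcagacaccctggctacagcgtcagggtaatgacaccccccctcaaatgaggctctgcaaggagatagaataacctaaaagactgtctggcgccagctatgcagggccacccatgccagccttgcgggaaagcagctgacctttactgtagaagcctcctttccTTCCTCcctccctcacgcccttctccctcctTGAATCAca
Gpnmb, chr6:49036268-49036517, plus strand: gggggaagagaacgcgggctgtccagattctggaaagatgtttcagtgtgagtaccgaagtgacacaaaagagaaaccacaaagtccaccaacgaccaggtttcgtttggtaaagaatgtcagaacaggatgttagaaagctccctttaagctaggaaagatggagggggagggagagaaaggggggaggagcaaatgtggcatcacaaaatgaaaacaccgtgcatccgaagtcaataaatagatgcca
Apoe, chr7:19699189-19699438, minus strand: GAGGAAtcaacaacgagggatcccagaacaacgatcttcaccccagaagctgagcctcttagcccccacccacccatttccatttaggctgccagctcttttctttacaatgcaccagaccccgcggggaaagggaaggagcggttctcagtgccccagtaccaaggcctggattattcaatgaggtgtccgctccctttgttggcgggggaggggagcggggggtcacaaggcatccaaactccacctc

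Read on both strands, C1qb held TGCTGA beginning 131 bases and GAGGAA beginning 30 bases before the start. Trem2 held GAGGAA on the opposite strand at 40 bases and TGANTCA at 9 bases before the start. The Apoe window shown held GAGGAA at its far edge, 250 bases before the start. Of the other 2 Apoe windows, 1 held GAGGAA at 132 bases before its start and 1 held none of these letters. The Gpnmb and Mertk windows also held none. GAGGAA was present in 4 of the 7 windows of these genes and in 23.3% of all 32851 promoter windows of the same length. The 7 windows are not 7 genes, as 3 are of Apoe. Those with GAGGAA were of C1qb, Trem2 and, more than once, Apoe, which did not rise with PF-9363. TGCTGA was present in 1 of the 7 windows and in 16.1% of all windows, and TGANTCA in 1 of 7 and in 6.75%. The E-box CACGTG was in none of the 7 and in 6.02% of all. These 4 short motifs were searched after 4 longer ones had given no match. The longer ones were AGAGGAAGT (0.798% of all windows), TGCTGAC (3.81%), TCACGTGA (0.785%) and TTGCNNAA (9.56%), the first 3 of which contain the short PU.1, Maf and E-box letters. The matches describe letters and not binding.

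Values are given as CPM (counts scaled to the library total, here adjusted by the TMM method). A mean carries its SD over 3 libraries for luciferase and SETBP1-D868N and over 4 libraries for DMSO and PF-9363. In bulk samples a fall in a transcript because fewer cells of a type are present cannot be told apart from a fall in the transcript per cell. The luciferase and SETBP1-D868N libraries held 60147266 to 68730322 counts, and the DMSO and PF-9363 libraries 7083731 to 10359093. The mouse Setbp1 symbol was higher in the SETBP1-D868N libraries, by 1.91 on the log2 scale (SE 0.35, edgeR adjusted p = 6.60e-04). The luciferase 1 library differed more from its replicates, with a chi-square per degree of freedom of 27.1 and 27.6 against luciferase 2 and 3, than these did from each other (2.27). Defining markers of lymphocytes were near or at 0, with summed marker levels of at most 1.68 CPM in any library.

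Csf1r encodes the receptor for CSF1 and IL34, the growth factors on which most macrophages depend. On GRCm38 it lies at chr18:61100598-61132149 on the plus strand. It overlaps the microRNA gene Mir6983 on the same strand and Hmgxb3 on the opposite strand. Reads of Hmgxb3 could not be told apart, because the strand handling of the counts is not given in the sources used here. Csf1r stood at 256, 255 and 255 CPM in the luciferase libraries and at 161, 169 and 175 CPM with SETBP1-D868N. The groups did not overlap, and the change was -0.60 on the log2 scale (SE 0.031, edgeR adjusted p = 4.83e-08). In the second experiment the level was 56.0, 61.1, 64.8 and 66.7 CPM with DMSO and 457, 422, 404 and 414 CPM with PF-9363. Every treated library lay above every DMSO library, and the change was 2.77 on the log2 scale (SE 0.068, edgeR adjusted p = 1.47e-23).

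Among 9 genes of CSF1 receptor ligands and signalling, 8 were tested in each experiment. With SETBP1-D868N 6 fell and none rose, and with PF-9363 6 rose and 1 fell. Csf1, a ligand of the receptor, went from 122 ± 1.13 to 73.5 ± 3.03 CPM with SETBP1-D868N (log2 fold change -0.73) and from 41.5 ± 2.28 to 373 ± 39.8 CPM with PF-9363 (3.17). Cbl, which marks the receptor for degradation, rose with PF-9363 by 0.97 on the log2 scale, and Dusp5, a phosphatase of the ERK pathway, fell by 0.43. Il34, the other ligand, was listed at 0 in all 8 libraries of the second experiment.

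Adgre1 encodes F4/80, the adhesion G protein-coupled receptor long used as a mouse macrophage marker, at chr17:57358691-57483527 on the plus strand. It stood at 170, 168 and 173 CPM with luciferase and at 104, 108 and 110 CPM with SETBP1-D868N. This gap was many times the spread within either group, at -0.67 on the log2 scale (SE 0.029, edgeR adjusted p = 1.54e-08). The DMSO libraries held 79.9, 83.8, 74.6 and 95.4 CPM and the PF-9363 libraries 508, 465, 543 and 538 CPM. Again the groups did not overlap, and Adgre1 rose by 2.62 on the log2 scale (SE 0.074, edgeR adjusted p = 3.67e-22). Other adhesion receptors were mixed: of 8 tested in the first experiment 3 rose and 2 fell, and of 6 tested in the second 4 rose and 2 fell. Adgrl4, known mainly from endothelium, rose with SETBP1-D868N (2.43) and fell with PF-9363 (-3.01), the opposite of Adgre1 in each case. Adgre5 moved as Adgre1 did, falling with SETBP1-D868N (-0.44) and rising with PF-9363 (0.75).

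Maf encodes c-Maf, a leucine-zipper transcription factor of mature macrophages, at chr8:115682942-115707794 on the minus strand, where Gm15655 overlaps it on the opposite strand. The luciferase libraries lay at 13.5, 13.6 and 13.4 CPM and the SETBP1-D868N libraries at 7.67, 8.56 and 7.47 CPM. Maf fell by 0.77 on the log2 scale (SE 0.063, edgeR adjusted p = 1.37e-06), with no overlap between groups. With DMSO the level was 13.9, 13.97, 13.1 and 12.2 CPM and with PF-9363 72.1, 76.4, 76.3 and 79.6 CPM. The change was 2.52 on the log2 scale (SE 0.090, edgeR adjusted p = 3.62e-20), the smallest of the 8 that rose.

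Across 14 transcription factors of the macrophage lineage, 12 fell and 1 rose with SETBP1-D868N. With PF-9363, 10 of 13 tested rose and 1 fell. Cebpa, a factor of myeloid progenitors and granulocytes, was the exception in both directions, rising with SETBP1-D868N (log2 fold change 0.52) and falling with PF-9363 (-0.52). Klf4, a factor of monocyte differentiation, rose from 5.98 ± 0.998 CPM with DMSO to 74.1 ± 13.3 CPM with PF-9363 (3.62). Egr2, which is induced by CSF1 signalling, fell with SETBP1-D868N (-0.61).

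C1qa and C1qb encode chains of C1q, the complement component that recognises immune complexes and dying cells. They lie side by side on chromosome 4, C1qb at chr4:136880129-136886187 and C1qa at chr4:136895917-136898803, with C1qc between them and all on the minus strand. C1qa stood at 17.8, 19.6 and 19.3 CPM with luciferase and at 9.14, 9.97 and 7.50 CPM with SETBP1-D868N. Its change of -1.09 on the log2 scale (SE 0.093, edgeR adjusted p = 1.25e-05) was the largest fall among the 9 genes, and the groups did not overlap. C1qb went from 52.7, 57.0 and 55.2 CPM to 30.5, 34.0 and 24.9 CPM. It also fell without overlap, by 0.88 on the log2 scale (SE 0.12, edgeR adjusted p = 0.00237). The log2 ratio of C1qb to C1qa was 1.54 ± 0.026 with luciferase and 1.74 ± 0.020 with SETBP1-D868N, and the exact permutation p of 0.1 is the smallest that 3 against 3 allows (0.3 adjusted over 6 ratios).

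With PF-9363 both chains rose. C1qa counts were few, at 11, 11, 9 and 15 reads with DMSO and 87, 55, 63 and 53 with PF-9363, which correspond to 1.09, 1.10, 0.843 and 1.36 CPM and to 8.96, 7.09, 9.81 and 5.75 CPM. The groups were separate, and C1qa rose by 2.82 on the log2 scale with the widest error of the 8 (SE 0.27, edgeR adjusted p = 1.24e-10). C1qb was at 6.84, 8.48, 7.87 and 8.80 CPM with DMSO and at 51.9, 53.8, 59.0 and 48.0 CPM with PF-9363 (2.73, SE 0.11, edgeR adjusted p = 8.60e-19). The log2 ratio of C1qb to C1qa was 2.82 ± 0.25 with DMSO and 2.77 ± 0.25 with PF-9363 (exact permutation p = 0.743), and with a pseudocount of 2 counts in place of 0.5 the difference changed sign, from -0.054 to 0.071. C1qc also rose, by 1.99 on the log2 scale. The log2 ratio of C1qb to C1qc, chosen after its values were seen and not tested, was 0.87 ± 0.39 with DMSO, where DMSO 2 stood apart at 1.44, and 1.58 ± 0.086 with PF-9363.

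Of 15 complement components and receptors, 10 were tested in the first experiment, where 7 fell and none rose. In the second 8 were tested, of which 7 rose and 1 fell. C3ar1, the receptor for the fragment C3a, went from 71.0 ± 1.53 to 41.9 ± 2.57 CPM with SETBP1-D868N and from 23.5 ± 4.86 to 125 ± 17.2 CPM with PF-9363. Cfp, which encodes properdin, rose with PF-9363 by 1.84 on the log2 scale.

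Trem2 encodes a lipid-sensing receptor that signals through the adaptor Tyrobp (DAP12), and lies at chr17:48346401-48354147 on the plus strand. It stood at 31.8, 33.3 and 33.2 CPM with luciferase and at 22.8, 26.4 and 21.6 CPM with SETBP1-D868N. The fall of 0.47 on the log2 scale (SE 0.066, edgeR adjusted p = 2.28e-04) left no overlap. The DMSO libraries held 17.7, 21.7, 20.0 and 22.6 CPM and the PF-9363 libraries 130, 129, 149 and 147 CPM. Trem2 rose by 2.76 on the log2 scale (SE 0.084, edgeR adjusted p = 1.26e-21). Its adaptor also rose, from 180 ± 9.59 to 492 ± 38.5 CPM (Tyrobp, log2 fold change 1.45). The log2 ratio of Trem2 to Tyrobp was -3.14 ± 0.16 with DMSO and -1.83 ± 0.018 with PF-9363, with no overlap. The difference of 1.31 gave an exact permutation p of 0.0286, the smallest that 4 against 4 allows, and 0.171 after adjustment over the 6 ratios, so it did not pass the threshold. In the first experiment that ratio was -3.22 ± 0.054 and -3.23 ± 0.14 (exact permutation p = 1).

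**Figure D2:**
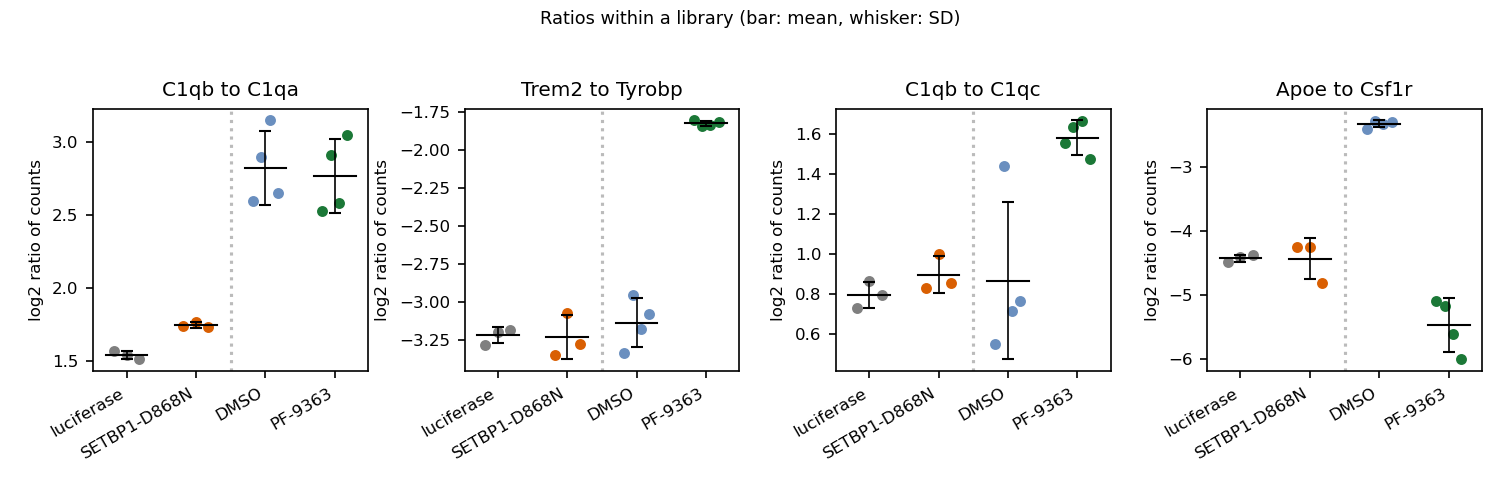
Log2 ratio of counts within each library (points) with group mean and SD for 4 gene pairs, with the 2 experiments separated by a dotted line. Trem2 to Tyrobp is higher in all 4 PF-9363 libraries than in all 4 DMSO libraries, and Apoe to Csf1r is lower; C1qb to C1qc and Apoe to Csf1r were chosen after their values were seen and were not tested.

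In the list of 15 TREM2 partners and genes of TREM2-positive macrophages, 11 fell and 2 rose with SETBP1-D868N, and 13 rose and 1 fell with PF-9363. Clec7a (dectin-1, a receptor for fungal glucans) rose from 44.8 ± 1.52 to 1054 ± 115 CPM with PF-9363. Itgax (CD11c) rose by 2.94 and Cd9 by 2.28 on the log2 scale, while Trem3, a neighbouring receptor of the same family, fell by 1.87. With SETBP1-D868N, Lgals3 (galectin-3) fell by 0.64 and Spp1 (osteopontin) by 0.61.

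Mertk encodes a TAM-family receptor tyrosine kinase through which macrophages engulf dying cells, at chr2:128698956-128802894 on the plus strand, where Gm23172 overlaps it on the same strand and Gm14011 on the opposite one. The luciferase libraries held 26.8, 26.0 and 23.8 CPM and the SETBP1-D868N libraries 19.8, 20.9 and 20.1 CPM. The groups did not overlap, although this was the smallest of the 8 falls, at -0.34 on the log2 scale (SE 0.051, edgeR adjusted p = 1.79e-04). With DMSO the level was 6.64, 8.78, 8.24 and 9.98 CPM and with PF-9363 89.5, 79.4, 91.7 and 83.6 CPM. Mertk thus rose by 3.35 on the log2 scale (SE 0.10, edgeR adjusted p = 2.06e-21), second to Gpnmb.

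The other TAM receptors are Axl and Tyro3. Axl was 7.30 ± 0.992 CPM with DMSO and 14.02 ± 1.93 CPM with PF-9363 (log2 fold change 0.94, called higher), and Tyro3 was 2.21 ± 0.598 and 2.06 ± 1.16 CPM (not called). These 2 receptors were named after their values were seen. Among 15 genes of TAM receptors, bridging ligands and engulfment, 13 were tested in each experiment: 9 fell and 2 rose with SETBP1-D868N, and 11 rose and 1 fell with PF-9363. In the first of these counts Elmo1, 1 of the 2 that rose, lost its call under 8 of 14 alternatives and Mfge8, 1 of those that fell, under 6. Gas6, a bridging ligand of Mertk, rose from 1.34 ± 0.580 to 19.5 ± 1.95 CPM with PF-9363, and Mfge8, a bridging protein for integrins, from 23.6 ± 4.57 to 196 ± 30.8 CPM. Dock1, a factor of the engulfment machinery, fell by 0.58 on the log2 scale.

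Gpnmb encodes a transmembrane glycoprotein of lysosomes and melanosomes, at chr6:49036546-49070929 on the plus strand. It was the most variable of the 9 genes in the first experiment, at 302, 247 and 246 CPM with luciferase and 244, 283 and 161 CPM with SETBP1-D868N. The groups overlapped, and the log2 fold change of -0.21 (SE 0.25, 95% interval -0.71 to 0.29, edgeR adjusted p = 0.560) did not pass the test. Without SETBP1-D868N 3 the change was -0.010 and without SETBP1-D868N 2 it was -0.40, and Gpnmb was not called in either case. The library SETBP1-D868N 3 was also the lowest of its group for C1qa, C1qb, Apoe, Maf and Trem2, but the highest for Adgre1 and Csf1r and in the middle for Mertk. In the second experiment Gpnmb stood at 161, 163, 173 and 220 CPM with DMSO and at 1847, 1583, 2076 and 2023 CPM with PF-9363. This was the largest rise of the 9 genes, at 3.39 on the log2 scale (SE 0.12, edgeR adjusted p = 1.12e-10).

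Of 11 MiT/TFE transcription factors and lysosomal genes associated with Gpnmb, 7 fell and 1 rose with SETBP1-D868N, and 9 rose and 2 fell with PF-9363. Mitf, a factor of the MiT family, went from 25.5 ± 0.564 to 16.6 ± 0.497 CPM and, in the second experiment, from 11.4 ± 2.10 to 47.1 ± 2.90 CPM. Its relative Tfec moved the other way, rising by 0.31 with SETBP1-D868N and falling by 1.01 with PF-9363. Atp6v0d2, a subunit of the vacuolar proton pump, rose with PF-9363 by 4.33 and the protease gene Ctsb by 2.96 on the log2 scale.

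Apoe encodes apolipoprotein E, which carries cholesterol out of macrophages, at chr7:19696109-19699188 on the minus strand. In the first experiment it stood at 11.4, 11.9 and 12.2 CPM with luciferase and at 8.47, 8.84 and 6.25 CPM with SETBP1-D868N. Apoe fell by 0.59 on the log2 scale (SE 0.12, edgeR adjusted p = 0.00328) with no overlap. In the second it was at 10.5, 12.5, 12.8 and 13.5 CPM with DMSO and at 13.3, 11.6, 8.25 and 6.40 CPM with PF-9363. The treated libraries spread across and below the DMSO range, with a coefficient of variation of 31.6% against 10.5%. The log2 fold change was -0.31 (SE 0.18, 95% interval -0.66 to 0.036, edgeR adjusted p = 0.113), an interval that lies wholly below the rise of any of the other 8 genes. Apoe was called lower by edgeR without PF-9363 1 (log2 fold change -0.50, adjusted p = 0.0152) and with scaling by library size alone (-0.54, adjusted p = 0.0105). Without PF-9363 4 the change shrank to -0.13 and was not called. The log2 ratio of Apoe to Csf1r, chosen after its values were seen and not tested, was -2.33 ± 0.055 with DMSO and -5.47 ± 0.42 with PF-9363.

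Most tested genes of a list on apolipoproteins and cholesterol handling rose with PF-9363 where Apoe did not. The apolipoprotein gene Apoc4 was at 0 in every library of the second experiment, and the genes named here are not apolipoproteins. Of 15 in the list, 12 were tested in each experiment, and 11 fell with SETBP1-D868N while 10 rose and 2 fell with PF-9363. Abca1, which exports cholesterol to apolipoproteins, went from 9.29 ± 1.18 to 3.35 ± 0.473 CPM with SETBP1-D868N (log2 fold change -1.47) and from 6.95 ± 1.33 to 51.6 ± 3.33 CPM with PF-9363 (2.89). Msr1, a scavenger receptor for modified lipoproteins, rose by 3.47. Vldlr, a receptor that takes up lipoproteins, fell by 2.32. Pltp, a phospholipid transfer protein, fell with SETBP1-D868N by 1.03.

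**Figure D3:**
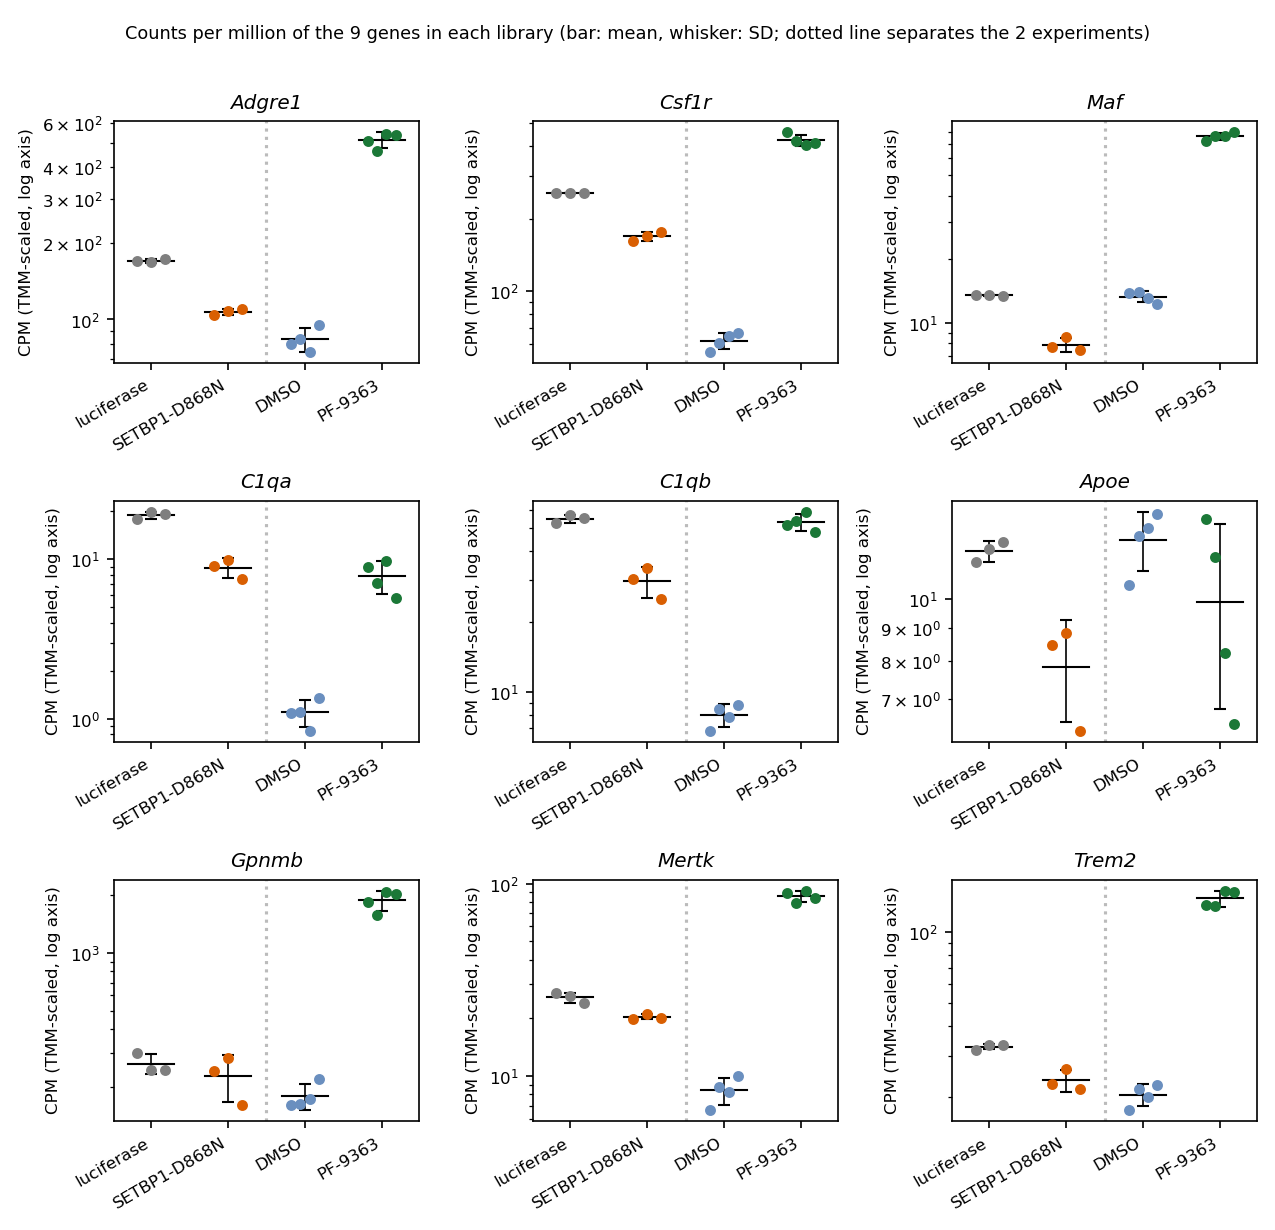
CPM of each of the 9 genes in all 14 libraries (points, log axes of different range) with the mean and SD of each group, with the 2 experiments separated by a dotted line. In 8 panels every PF-9363 library lies above every DMSO library, and in the Apoe panel they overlap; the SETBP1-D868N and luciferase libraries overlap only for Gpnmb.

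Across the 2 comparisons, 7 genes (Adgre1, Csf1r, Maf, C1qa, C1qb, Mertk and Trem2) fell with SETBP1-D868N and rose with PF-9363. Of all 3098 genes called lower with SETBP1-D868N and tested in both experiments, 67.3% were called higher with PF-9363 and 14.6% were called higher by at least 4-fold. The 2 experiments share no library, and they differed in RNA input (500 and 100 ng), library preparation and depth, so levels were not tested between them. Groups did not overlap for 8 of the 9 genes in each comparison; over all tested genes the SETBP1-D868N libraries lay wholly below the luciferase libraries for 27.3%, and the PF-9363 libraries wholly above the DMSO libraries for 34.0%. The 9 genes summed to 831 to 882 CPM with luciferase and 534 to 669 CPM with SETBP1-D868N, and to 354 to 450 CPM with DMSO and 2828 to 3417 CPM with PF-9363. Without Gpnmb, the sums were 580 to 585, 364 to 385, 193 to 231 and 1245 to 1341 CPM.

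Levels were also divided by the combined length of all annotated exons of each gene. The transcripts present may be shorter than this length, so the order of genes depends on that choice. With luciferase, Adgre1 led at 52.6 CPM per kb, before C1qb at 50.5, Csf1r at 44.2, Gpnmb at 40.7 and C1qa at 18.2. Then came Trem2 at 6.62, Mertk at 5.90, Apoe at 5.54 and Maf at 1.64. Neighbours whose libraries overlapped were Adgre1 with C1qb, Csf1r with Gpnmb, and Mertk with Apoe. With SETBP1-D868N, Gpnmb had the highest mean at 35.2 CPM per kb but overlapped Adgre1 at 33.2, and Maf was again last at 0.959. Csf1r with C1qb, and Trem2 with Mertk, overlapped there too, and in SETBP1-D868N 3 Gpnmb lay below both Adgre1 and Csf1r. In the DMSO libraries Gpnmb at 27.5 and Adgre1 at 25.8 CPM per kb led and overlapped, and C1qa was last at 1.06. C1qb with Apoe, and Mertk with Maf, also overlapped with DMSO. With PF-9363 the order was Gpnmb at 289, Adgre1 at 159, Csf1r at 73.5, C1qb at 48.9, Trem2 at 28.0, Mertk at 19.8, Maf at 9.23, C1qa at 7.60 and Apoe at 4.62 CPM per kb. There only Maf with C1qa and C1qa with Apoe overlapped. Apoe, at 5.77 CPM per kb with DMSO, ranked above Trem2, Mertk, Maf and C1qa there and below all of them with PF-9363. Without division by length, the mean of Apoe with DMSO (12.3 CPM) lay below those of Trem2 (20.5 CPM) and Maf (13.3 CPM). The libraries of Apoe (10.5 to 13.5 CPM) and Maf (12.2 to 13.97 CPM) overlapped, so their order is not clear.

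**Figure D4:**
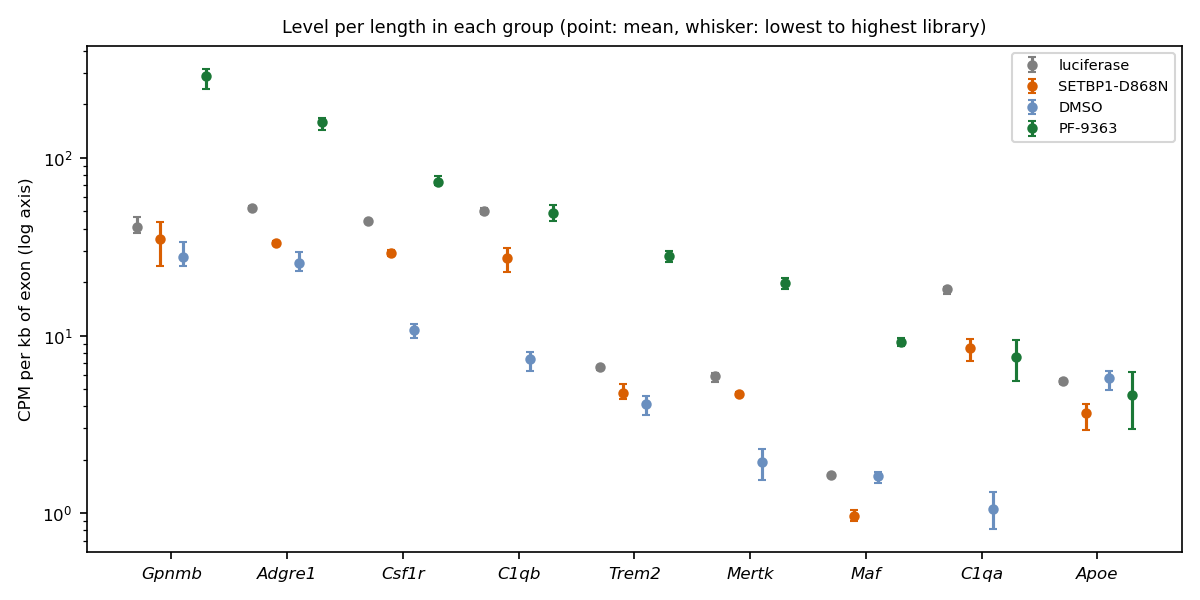
Level of each gene in CPM per kb of exon (log axis) in the 4 groups, as the mean (point) and the lowest to highest library (whisker). Gpnmb reaches 289 CPM per kb with PF-9363, while Apoe stays between 3.67 and 5.77 CPM per kb in all 4 group means.

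Genes whose log2 CPM followed a member most closely over the 14 libraries were found among 12367 candidates by the root mean square difference of values centred within each experiment. Closest to Adgre1 was Nlrp3 (0.049), to Csf1r Plxdc2 (0.060) and Csf2rb2 (0.095), and to Trem2 Psap (0.061) and Sgms1 (0.079). Maf was followed by Lcn2 (0.099) and Trp53inp2 (0.10), Mertk by Rab27b (0.11) and Tmem132a (0.12), and C1qb by Ctss (0.12) and Tlr13 (0.12). Gpnmb was followed by Msr1 (0.16) and Ccl2 (0.17), C1qa by Gnaz (0.17) and 6430548M08Rik (0.19), and Apoe by 2010016I18Rik (0.17) and H2bc21 (0.17). Within the 9 genes, the nearest to Csf1r was Adgre1 (0.11) and the nearest to Gpnmb was Mertk (0.19). The nearest to Apoe was Maf, at 1.12. These distances describe the libraries and carry no test.

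Among 20 other core macrophage genes, 19 were tested in each experiment: 13 fell and 2 rose with SETBP1-D868N, and 16 rose and 2 fell with PF-9363. Fcgr1, the high-affinity IgG receptor, rose from 0.798 ± 0.247 to 25.8 ± 3.75 CPM with PF-9363, from only 6 to 11 reads per DMSO library. Cd14, the lipopolysaccharide co-receptor, rose from 19.0 ± 0.711 to 172 ± 26.2 CPM. Mrc1, the mannose receptor, fell by 0.79 and Lyz2, lysozyme, by 0.66 with SETBP1-D868N. Myo7a rose with SETBP1-D868N (0.47) and fell with PF-9363 (-0.85).

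**Figure D5:**
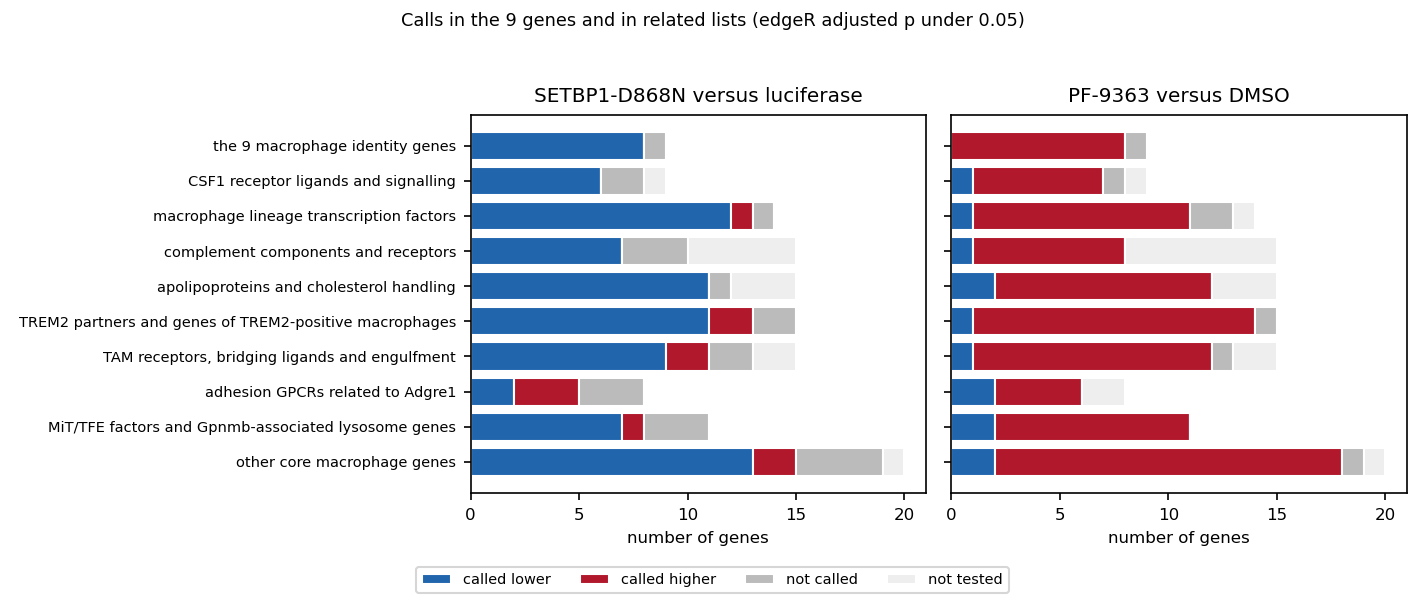
Number of genes called lower (blue), called higher (red), not called (grey) or not tested (pale) for the 9 genes and 9 related lists in each comparison. Blue is the longer called share for all lists but the adhesion receptors on the left, and red is the longer called share in all lists on the right.

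Many markers of other cell types also changed, some in the same direction as the 9 genes and some in the opposite one. The part of these cell types in the results was not tested. Over all tested genes, 22.7% were called lower and 24.5% higher with SETBP1-D868N, and 36.6% higher and 39.4% lower with PF-9363. A sum follows its most abundant marker most. In both experiments this was S100a9 for neutrophils, Mpo for progenitors, Mmp9 for osteoclasts and Ccr7 for dendritic cells. For monocytes it was Ly6c2 and for mast cells and basophils Cpa3. With SETBP1-D868N, neutrophil markers summed to 11333 to 13798 CPM against 20957 to 21723 CPM with luciferase, and 9 of 9 fell. Stem and myeloid progenitor markers summed to 6688 to 6798 against 5026 to 5327 CPM, and 7 of 8 rose. Osteoclast markers summed to 206 to 215 against 313 to 330 CPM, with 7 of 8 lower. Dendritic cell markers summed to 50.5 to 53.9 against 95.4 to 106 CPM, with 6 of 8 lower. Monocyte markers summed to 999 to 1051 against 1026 to 1117 CPM, with 6 of 8 lower and 1 higher. Mast cell and basophil markers summed to 6252 to 6375 against 5740 to 5952 CPM, with 5 of 9 higher and 4 lower.

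With PF-9363, osteoclast markers summed to 429 to 561 CPM against 134 to 156 CPM with DMSO, with 6 of 7 tested higher. Dendritic cell markers summed to 24.2 to 29.0 against 7.35 to 9.18 CPM, with 3 of 4 tested higher and 1 lower. Eosinophil markers summed to 250 to 359 against 645 to 844 CPM, with 6 of 6 tested lower. In the same libraries, stem and myeloid progenitor markers summed to 525 to 655 against 5791 to 6920 CPM, with 5 of 8 lower and 1 higher. Mast cell and basophil markers summed to 4784 to 5767 against 1230 to 1575 CPM, with 8 of 9 higher, and neutrophil markers to 16901 to 18318 against 14041 to 17173 CPM, with 4 of 9 higher and 1 lower. Monocyte markers summed to 758 to 844 CPM with PF-9363 against 3212 to 3534 CPM with DMSO, with 3 of 8 higher and 4 lower. Ly6c2 was the most abundant of these markers, and the fall in the sum was not shared by the 3 called higher. Among markers of tissue-resident macrophages, the microglial factor Sall1 and the alveolar marker Krt79 were at 0 in every library, and the Kupffer cell marker Clec4f was at 0 in every library as well.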

How the data were processed

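Messenger RNA was measured in 14 libraries, grouped from the sample titles (3, 3, 4 and 4). Each experiment has 1 table of raw counts deposited by the authors, with gene symbols as rows. STAR, DESeq2 and the builds GRCm38 and mm10 are named per the submitters' processing notes, without versions. The counting program, annotation and strand handling are not given in the sources used here. Gene positions and exon lengths were taken from GENCODE M21 (GRCm38) by symbol.

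Each table was analysed alone with R 4.3.3 and edgeR 4.0.16: filterByExpr (minimum count 10, minimum total 15), TMM scaling, robust quasi-likelihood test, Benjamini-Hochberg adjustment over all tested genes. The threshold for a call was 0.05. No library had unmapped columns (0). The test was checked on simulated counts. Ratios of gene pairs used a pseudocount of 0.5 counts and exact permutation tests over libraries, adjusted over 6 planned ratios (3 pairs in each experiment, of which 1 pair and some list genes are not reported here). Ratios of C1qb to C1qc and Apoe to Csf1r, and the short promoter motifs, were added after values were seen and carry no test.

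The 9 genes and all lists were chosen with earlier results of these data known. Named list genes were those reaching 5 CPM in 1 group, with the largest changes, up to 3 or 2 per list, comparison and direction. Exceptions were Axl, Tyro3, genes at 0 throughout an experiment (Il34, Apoc4) and Tyrobp, the partner of Trem2 in a planned ratio. Cell type markers were named where they were the most abundant of their list or at 0 in every library. Alternatives were RLE or library-size scaling, no filter, a mean count of at least 10, no robust estimation, DESeq2 1.42.0, limma 3.58.1 (voom), the replicate number as a block, and each library left out.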

Additional observations from a re-analysis of the deposited data

How the results depend on the processing

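The 8 calls of lower genes with SETBP1-D868N and the 8 calls of higher genes with PF-9363 kept their direction and their side of the threshold under each alternative run (14 in the first experiment, 16 in the second). The number of the 9 genes called lower with PF-9363 was 0, and became 1 (Apoe) with library size alone and without PF-9363 1, a range of 0 to 1 when each library was left out. Scaling by library size alone moved the median gene by 0.049 and -0.23 on the log2 scale, and Cst7 from 0.15 to -0.079 with PF-9363. With 2 counts as pseudocount, the change in C1qb to C1qa with PF-9363 became 0.071. When each library was left out, the change in Trem2 to Tyrobp with SETBP1-D868N ranged from -0.093 to 0.046 and C1qb to C1qa with PF-9363 from -0.15 to 0.055. The cause of these shifts was not tested.

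Among the 2 uncalled changes, Gpnmb with SETBP1-D868N ranged from -0.40 to -0.010 and Apoe with PF-9363 from -0.54 to -0.13. Counts for the related lists with SETBP1-D868N rest partly on genes near the threshold: Elmo1 and Fcgr1 lost their call under 8 of 14 alternatives each, and Clec7a, Mfge8 and Vldlr under 6 each.

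Libraries with the same replicate number did not deviate together (correlations of -0.097 to -0.037 and, for DMSO and PF-9363, -0.040 to 0.0075). The main test did not pair them, and these correlations cannot show whether equal numbers shared an animal or culture. With the replicate number as a block, 8 of the 9 genes were called lower with SETBP1-D868N and 8 higher with PF-9363, and no call among the 9 genes changed. Among the 9 genes, depth limits C1qa most, at 9 to 15 counts per DMSO library. Some list genes were as sparse or sparser, so their fold sizes are less certain. Fcgr1 had 6 to 11 and Gas6 6 to 19 counts per DMSO library, and Adgrl4 2 to 9 per PF-9363 library.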
